A study of Mus musculus with 6 samples.

Results

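The replication-type histone genes are the mouse genes whose symbol in the mm10 annotation begins with Hist1h, Hist2h, Hist3h or Hist4h. The rule picked 70 genes out of the 55487 listed in the files, without using any measured value. They comprise 6 genes for the linker histone H1, 20 for H2A, 19 for H2B, 12 for H3 and 13 for H4. Of these, 56 lie in the Hist1 cluster on chromosome 13, 10 in Hist2 on chromosome 3, 3 in Hist3 on chromosome 11 and 1, Hist4h4, on chromosome 6. The annotation calls 67 of them protein coding and 3 pseudogenes. The cells were naive CD4+ T cells (TN cells), T lymphocytes that have not yet met antigen, taken from spleens of C57BL6/J mice of WT genotype. Poly(A) RNA was sequenced from 3 libraries of mice given rapamycin in vivo and from 3 libraries of mice with no treatment. Rapamycin inhibits the kinase mTOR, which couples nutrient and growth signals to cell growth. The labels give no dose, duration, age or sex, and do not say whether a library came from 1 mouse or from a pool, so the spread behind each p-value may be technical.

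These genes supply the bulk of the histones that package new DNA, and most are switched on as a cell enters S phase. H2A, H2B, H3 and H4 form the nucleosome core and H1 binds the DNA between nucleosomes. Their transcripts are unusual among mRNAs: most lack introns and end in a conserved stem-loop rather than a poly(A) tail. The stem-loop is bound by the stem-loop binding protein Slbp and is cut downstream by a complex that includes the U7 small nuclear RNA. A smaller number of transcripts from the same genes run past the stem-loop to a poly(A) signal, a form known from resting and differentiated cells. Poly(A) selection keeps that form, so the levels below are those of polyadenylated RNA plus whatever other RNA passed the selection.

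The sequences below show both kinds of 3′ end for the members that the results turn on. They were read from the GENCODE gene models on mm10, 5′ to 3′ on the gene's own strand, and are written as DNA. Capitals mark the stem-loop, found as GGNNNTTTTNANNNCC. The sites are chr13:23739505-23739534 (plus strand) for Hist1h1c, chr13:23621775-23621804 (minus) for Hist1h1e, chr11:58955165-58955194 (plus) for Hist3h2a, chr13:21833026-21833051 (minus) for Hist1h2ap, chr13:21810891-21810920 (plus) for Hist1h2ao, chr3:96239777-96239806 (minus) for Hist2h2aa2 and chr13:21831791-21831820 (minus) for Hist1h4n.
Hist1h1c: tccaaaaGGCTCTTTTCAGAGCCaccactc
Hist1h1e: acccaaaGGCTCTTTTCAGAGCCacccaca
Hist3h2a: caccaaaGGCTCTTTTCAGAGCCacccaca
Hist1h2ap: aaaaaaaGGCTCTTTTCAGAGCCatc
Hist1h2ao: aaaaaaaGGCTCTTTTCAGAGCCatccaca
Hist2h2aa2: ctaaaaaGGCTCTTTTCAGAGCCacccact
Hist1h4n: aactaaaGGCCCTTTTCAGGGCCatccaat
The first 6 carry the same 16 letters, and Hist1h4n carries a form that differs within the stem. Of the 70 members, 43 had the motif after the stop codon, 25 of them in the first form and 7 in the form of Hist1h4n. The motif stood in 0.641% of 141298 transcripts of other genes read along the transcript, in 0.703% of them on the opposite strand, and on the opposite strand of 0 members.

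Where a gene model goes on after the stem-loop, a poly(A) signal (AATAAA, or its variant ATTAAA) can stand near its end. It is in capitals below for Hist1h1c (chr13:23740332-23740357, plus strand), Hist3h2a (chr11:58956787-58956812, plus) and Hist3h2ba (chr11:58949497-58949522, plus).
Hist1h1c: gtatgcttctAATAAAaagcgtttag
Hist3h2a: gtatatgcccAATAAAataagagtac
Hist3h2ba: taatggtattAATAAAtttggttcaa
By their 3′ end, the models of 20 members ended within 60 bases of the stem-loop and those of 23 ran past it. Another 15 ended at the stop codon, 9 had another 3′ end and 3 had no coding model. The signal stood in the last 40 bases of 11 of the 23 models that ran past the stem-loop, and of 1 of the 20 that ended there.

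The libraries held between 8757280 and 9315370 expected counts with rapamycin and between 9712670 and 11393300 untreated. Expected counts are RSEM's estimates, in which a read that fits several genes is divided between them. The members took 0.0126% to 0.0128% of them with rapamycin and 0.014% to 0.0149% untreated. A floor of 3 counts, the limit that a count of 0 allows, lay between 0.328 and 0.348 CPM (counts scaled to a common library size) with rapamycin and between 0.260 and 0.305 CPM untreated, for counting error alone. All 7 members without a single count in any library stood below that limit, which does not show that they were silent. They were Hist1h2aa, Hist1h2af, Hist1h2al, Hist2h2ab, Hist1h2ba, Hist2h3c1 and Hist1h4m.

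After a filter on low counts, 24 of the 70 members could be tested, and these held 93.1% of the counts of all members. Each library was scaled by a composition factor and fitted with edgeR's quasi-likelihood test, with p-values adjusted over all 11950 genes tested and a threshold of 0.05. The test called 1 member higher with rapamycin, Hist1h2ap, and 3 lower, Hist1h1c, Hist1h1e and Hist3h2a. Over all genes tested it called 24.1% higher and 23.3% lower (47.4% in either direction), so the share of members called was below the background in both directions. The members were also thinly covered, with standard errors between 0.09 and 0.51 on the log2 scale. Of the 24 log2 fold changes, 18 were negative and 6 positive, and their median was -0.20, against -0.01 over all genes tested. In 8 members every rapamycin library was below every untreated one (26.8% of all genes tested) and in 1 every rapamycin library was above (26.9%). The count of members called lower rested on single libraries: it was 1 without rapamycin replicate 2 and 1 without rapamycin replicate 3. The count called higher was 2 without untreated replicate 2, when Hist1h2be passed at an adjusted p of 0.0454.

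**Figure D1:**
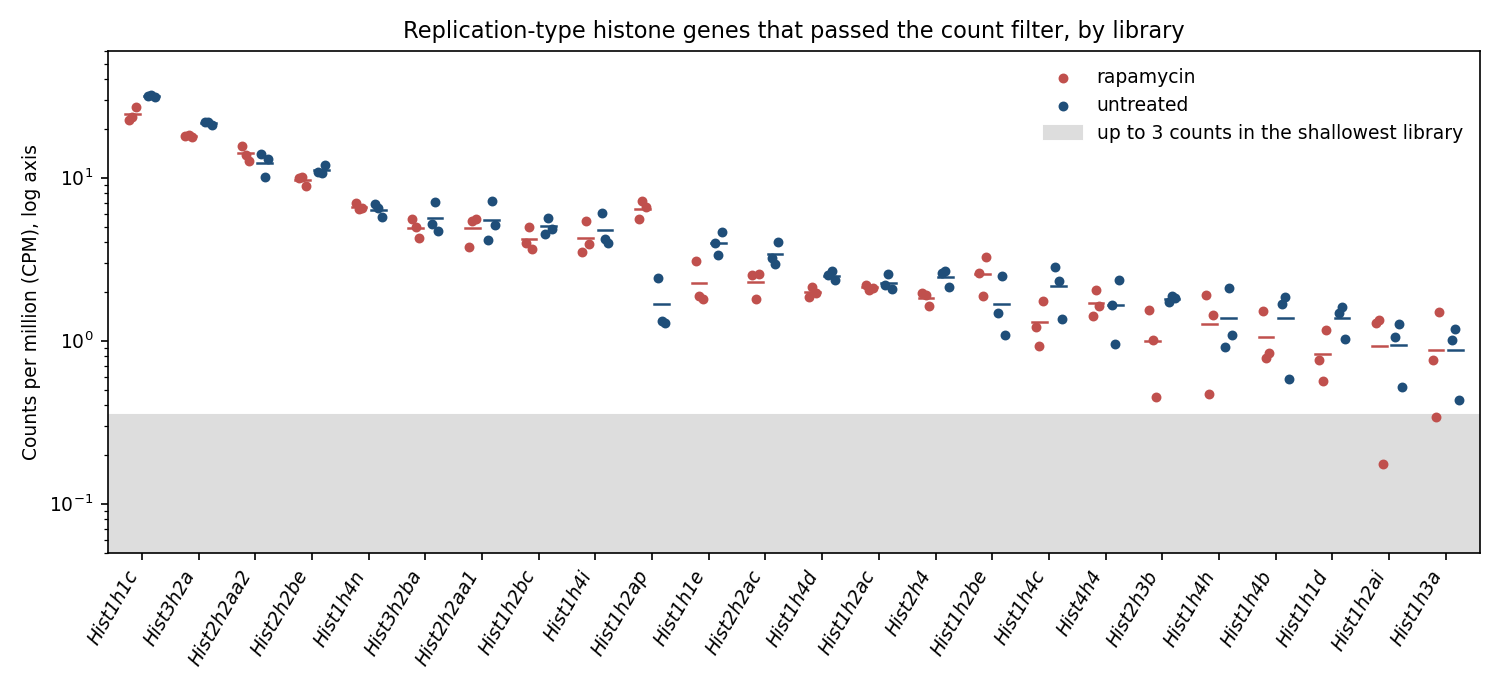
CPM on a log axis for each of the 24 tested members, ordered by mean level, with 3 rapamycin libraries left of 3 untreated libraries and a line at each mean. The grey band is what 3 counts or fewer amount to in the shallowest library. Hist1h2ap stands out with rapamycin values of 5.55 to 7.18 CPM against 1.29 to 2.41 CPM untreated, while most other members overlap or differ little.

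Fold changes were also computed with a correction for gene length, in which each library's deviation from the mean of all 6 is fitted on length with a spline. It moved the members' median to -0.02, against -0.01 over all genes. It called 3 members higher (20.2% of all genes) and 2 lower (18.2%). Hist2h2aa2 and Hist1h4n, whose models are short, joined Hist1h2ap among the higher ones, and Hist3h2a no longer passed. The cause of this dependence on length was not tested. Libraries also differed in the effective length that RSEM gave to short genes, which falls as fragments lengthen: that of Hist1h2ap was 227 to 233 bases with rapamycin and 243 to 244 bases untreated. The order of the groups in the sum over members differed between scales. In CPM it was 129 ± 0.658 with rapamycin and 143 ± 4.70 untreated, and in TPM, which divides each count by effective length before scaling, it was 375 ± 11.2 with rapamycin and 339 ± 21.9 untreated (SD, n = 3 each).

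**Figure D2:**
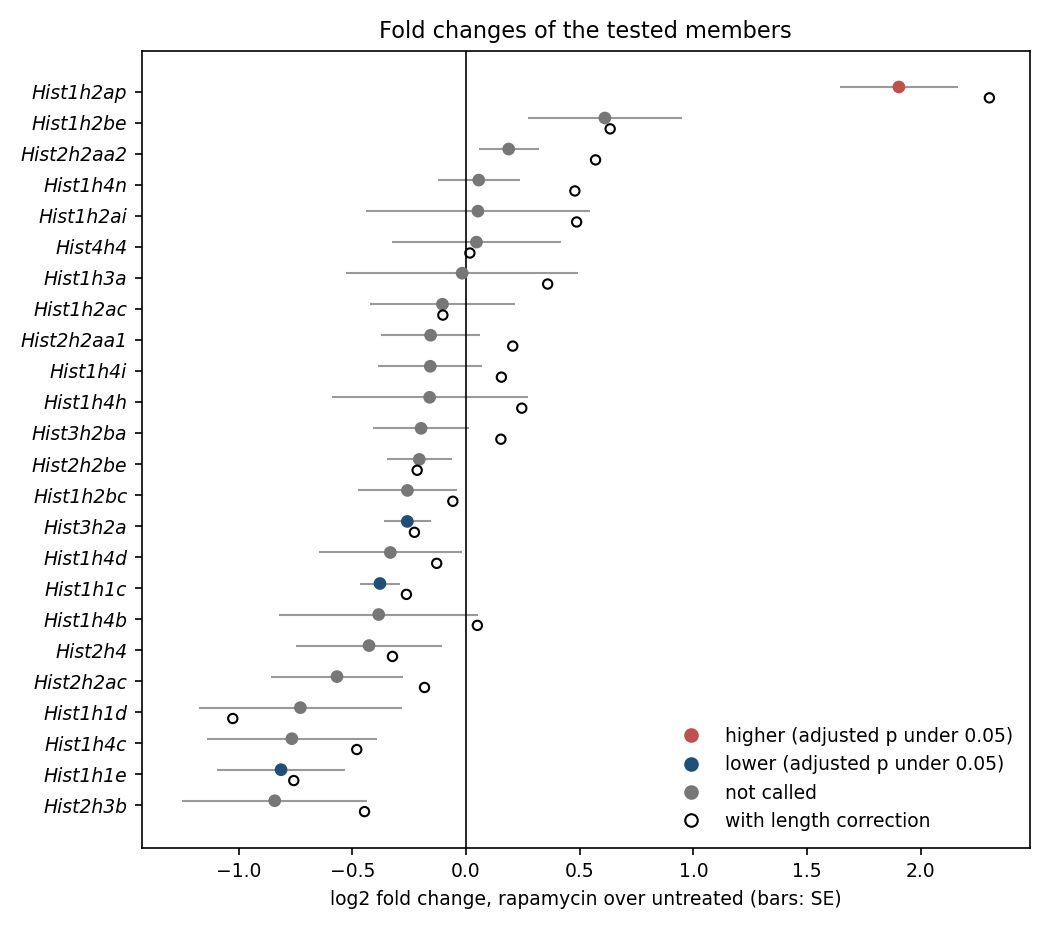
Log2 fold change of the 24 tested members, rapamycin over untreated, with bars of 1 SE, and open circles for the same value after length correction. Hist1h2ap lies at 1.90 (2.30 corrected), and most other members lie below 0 before the correction and nearer to 0 after it.

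Among the sums of the 5 histone types, that of the linker histone genes was the one called. The 6 H1 genes together had 27.5, 26.6 and 30.1 CPM with rapamycin, against 38.8, 37.4 and 37.6 CPM untreated. All 3 rapamycin libraries were below all 3 untreated libraries. Most of the sum was Hist1h1c: it averaged 24.5 of 28.0 CPM with rapamycin and 31.8 of 37.9 CPM untreated. With members of a type summed before the fit, the H1 sum fell by 0.44 ± 0.08 on the log2 scale (adjusted p = 4.8e-06, edgeR), where 23.9% of all rows were called lower. The sums of the other types were not called. For H2A the log2 fold change was 0.04 ± 0.06 (adjusted p = 0.679), for H2B -0.16 ± 0.09 (0.160), for H3 -0.24 ± 0.21 (0.361) and for H4 -0.17 ± 0.10 (0.165). The H1 call stood under all 11 alternatives run for it, from -0.40 to -0.78, the last of these without Hist1h1c and then mostly Hist1h1e. No length-corrected value was computed for a sum. In TPM, which was not tested for sums, the H2A genes together had 186, 182 and 168 with rapamycin and 138, 131 and 131 untreated, and the groups did not overlap. Hist1h2ap alone averaged 39.2 TPM with rapamycin and 9.06 TPM untreated. On the log2 TPM scales 70.1% and 70.3% of the calls over all genes were higher, against 50.8% in edgeR. The share of all genes without overlap in TPM was not computed.

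**Figure D3:**
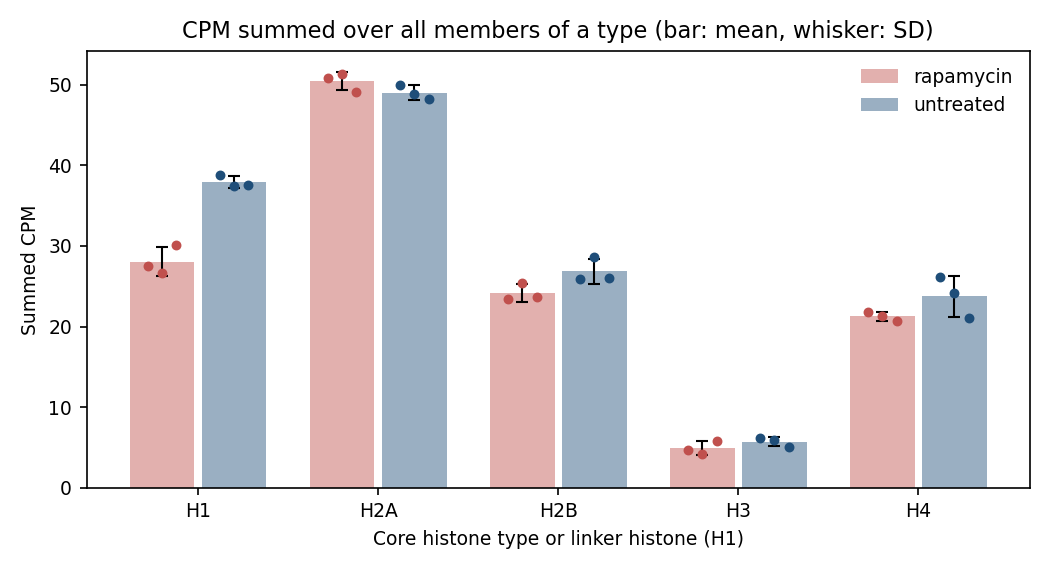
CPM summed over all members of each histone type, with bars at the mean of 3 libraries, whiskers of 1 SD and a point for each library, rapamycin left of untreated. The H1 bars differ (28.04 and 37.9 CPM), and the rapamycin bars of H2B, H3 and H4 lie slightly below the untreated ones, differences that were not called.

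Hist1h1c encodes the H1.2 linker histone and had the most counts of all members. It had 22.7, 23.7 and 26.998 CPM (208, 210 and 233 counts) with rapamycin, and 31.8, 32.1 and 31.4 CPM (367, 337 and 309 counts) untreated. Its 2 groups did not overlap. It fell by 0.38 ± 0.09 (adjusted p = 2.6e-04) and by 0.26 ± 0.09 after length correction (adjusted p = 0.0139). It passed under all 18 alternatives, with adjusted p between 5.9e-05 and 0.0400. Its counts were whole numbers in every library, and 91.5% of the 50-base words of its model occur in no other transcript, so the division of shared reads hardly touches it.

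Hist1h1e encodes H1.4. It had 3.10, 1.89 and 1.79 CPM with rapamycin, against 3.99, 3.37 and 4.62 CPM untreated. The highest rapamycin library lay just under the lowest untreated one. It fell by 0.81 ± 0.28 (adjusted p = 0.0136), and the length-corrected value was -0.76 ± 0.28 (adjusted p = 0.0270). The call was lost in DESeq2 (adjusted p = 0.0506), on both TPM scales (0.0638 and 0.0716), without rapamycin replicate 2 (0.0570), without rapamycin replicate 3 (0.0750) and without untreated replicate 3 (0.0667). Its model overlaps the 2-exon model of Hist1h2be on the same strand and shares 23.8% of its words with it. Hist1h2be itself had 2.60, 1.87 and 3.24 CPM with rapamycin and 1.47, 2.48 and 1.08 CPM untreated, a log2 fold change of 0.61 ± 0.34 (adjusted p = 0.134). The counts of both genes together had a log2 fold change of -0.24 ± 0.21 (adjusted p = 0.352). Over its alternatives the adjusted p of Hist1h1e ran from 0.00475 to 0.352.

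The remaining H1 members were low. Hist1h1d (H1.3) averaged 0.829 ± 0.303 CPM with rapamycin and 1.37 ± 0.313 CPM untreated (SD, n = 3 each), with a log2 fold change of -0.73 ± 0.45 (adjusted p = 0.180). Hist1h1a (H1.1) had 8, 4 and 1 counts with rapamycin and 16, 3 and 4 untreated, below the filter. Hist1h1b (H1.5) had 2 counts over all 6 libraries and the testis H1 gene Hist1h1t had 1. H1 without Hist1h1c, which includes Hist1h1e, summed to 4.74, 2.90 and 3.07 CPM with rapamycin and to 6.94, 5.37 and 6.14 CPM untreated. This sum fell by 0.78 ± 0.22 (adjusted p = 0.00262). Most of it in each library was Hist1h1e, which together with the overlapping Hist1h2be was not called (-0.24 ± 0.21, adjusted p = 0.352). No H1 sum with Hist1h2be added was computed.

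The promoters of both called H1 genes are shown because they moved the same way. The 140 bases before the RefSeq start of each gene (GRCm38.p6) are at chr13:23738667-23738806 on the plus strand for Hist1h1c and chr13:23622559-23622698 on the minus strand for Hist1h1e. Capitals mark 4 motifs searched on both strands: AAACACA, the element known as the H1 box; CCAAT, the CCAAT box; and the TATA box as TATAAA or in its second form TATATA. Overlapping matches are marked as 1 run.
Hist1h1c: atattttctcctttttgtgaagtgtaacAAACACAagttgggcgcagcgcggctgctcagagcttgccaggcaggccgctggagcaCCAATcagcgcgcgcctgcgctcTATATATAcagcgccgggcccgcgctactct
Hist1h1e: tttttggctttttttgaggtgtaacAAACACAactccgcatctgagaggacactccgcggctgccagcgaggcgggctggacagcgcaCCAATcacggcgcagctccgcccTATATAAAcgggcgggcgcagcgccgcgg
Both have the 3 elements in the same order. In the 250 bases before the start, AAACACA stood in 5 of the 6 H1 genes, in 4 of the other 56 members with a RefSeq promoter, and in 6.25% of 32851 promoters. CCAAT stood in 51 of all 62 such members and in 33.8% of all promoters, and TATAAA in 29 members and 12.4% of promoters. TATATA, which Hist1h1c has without TATAAA and Hist1h1e has with it, stood in 15 members, 5 of them H1 genes, and in 5.25% of promoters. A match of letters does not show that a factor binds.

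Among the H2A genes, 7 of 20 could be tested: 1 was higher, 1 lower and 5 did not pass. Beside this count and those for H2B, H4 and H3 below, 24.1% of all genes tested were called higher and 23.3% lower. Hist1h2ap encodes a canonical H2A. It had 5.55, 7.18 and 6.59 CPM with rapamycin (50.79, 63.64 and 56.84 counts), against 2.41, 1.32 and 1.29 CPM untreated (27.82, 13.93 and 12.7 counts). The lowest rapamycin library lay well above the highest untreated one. Its log2 fold change was 1.90 ± 0.26 (adjusted p = 7.7e-09). It passed under all 18 alternatives, from 1.75 to 2.30. The sum of near-identical members is not among these 18, because it merges Hist1h2ap into the group of 12 genes described below. In TPM it averaged 39.2 ± 4.77 with rapamycin and 9.06 ± 3.45 untreated (SD, n = 3 each).

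Which gene gave these reads cannot be read from the counts. Hist1h2ap has 93.1% of its 50-base words in common with Hist1h2ao, and both have the same coding sequence with 0 differences over 393 bases. RSEM gave Hist1h2ao 2.05 counts in rapamycin replicate 1 and none in the other 5 libraries. Summed, both genes had a log2 fold change of 1.92 ± 0.26 (adjusted p = 5.2e-09). Against the 10 other Hist1 H2A genes with a coding sequence of that length, Hist1h2ap differs at 0 to 12 bases, with Hist1h2ak the farthest. A group of 12 Hist1 H2A genes, joined where any pair shared at least 50% of words, summed to 100, 98 and 90.99 counts with rapamycin and to 76.01, 62 and 47.01 counts untreated. These sums lie at or near whole numbers, although the values of single genes do not. In CPM the group had 10.9, 11.1 and 10.5 with rapamycin and 6.59, 5.90 and 4.78 untreated. Its log2 fold change was 0.90 ± 0.16 (adjusted p = 5.4e-06), against 23.6% of rows called higher. The group without Hist1h2ap had a log2 fold change of 0.11 ± 0.23 (adjusted p = 0.734), with overlapping libraries.

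**Figure D4:**
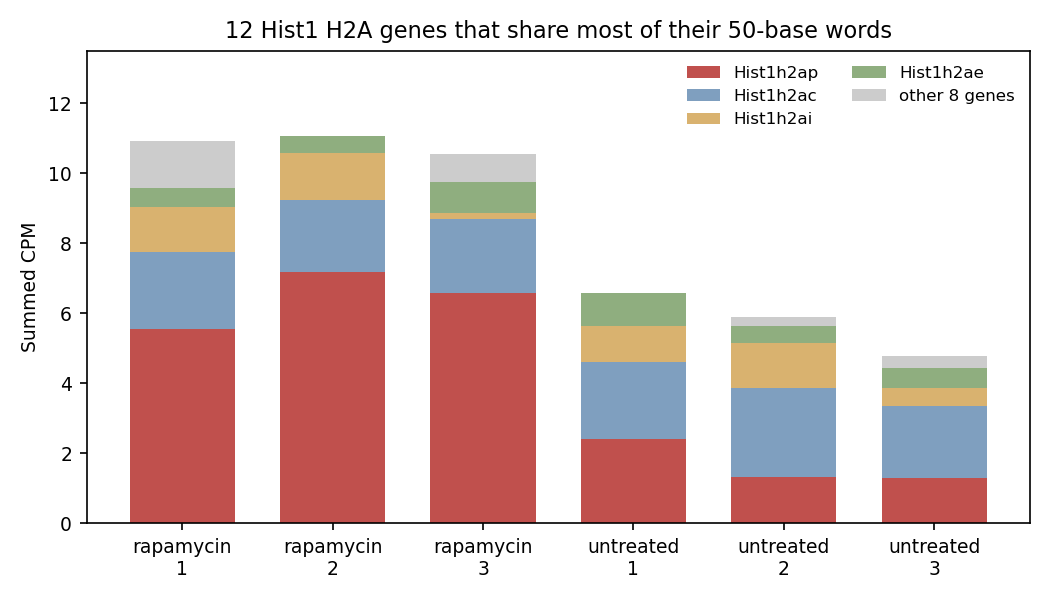
CPM in each library of the 12 Hist1 H2A genes that share most of their 50-base words, stacked by the gene to which RSEM assigned them, rapamycin libraries left of untreated. The stacks reach 10.5 to 11.1 CPM with rapamycin and 4.78 to 6.59 CPM untreated, and Hist1h2ap makes up most of the difference.

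A neighbour of Hist1h2ap on the same strand is the H4 gene Hist1h4n, and the pair has a near copy in Hist1h2ao and Hist1h4m. Hist1h4n shares 83.2% of its words with Hist1h4m, which had no count. It had 6.99, 6.43 and 6.49 CPM with rapamycin and 6.94, 6.47 and 5.69 CPM untreated. The groups overlapped, and the log2 fold change was 0.06 ± 0.18 (adjusted p = 0.825). After length correction it was 0.48 ± 0.18 (adjusted p = 0.0300, where the other alternatives reached 0.961).

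Hist3h2a encodes an H2A outside the large clusters and had 18.0, 18.4 and 17.7 CPM with rapamycin, against 21.8, 21.8 and 20.9 CPM untreated. The groups did not overlap, and the spread within each was small. It fell by 0.26 ± 0.10 (adjusted p = 0.0337). The call was lost in DESeq2 (adjusted p = 0.112), on both TPM scales (0.219 and 0.208) and after length correction (0.0751). It was also lost without rapamycin replicate 1 (0.0642), 2 (0.0513) or 3 (0.0864) and without untreated replicate 1 (0.0784) or 2 (0.0758), so it holds by a narrow margin. The range over all its alternatives was 0.0124 to 0.219. Its model shares 31.5% of its words with Trim17, an overlapping gene on the same strand, and with Trim17 added the log2 fold change was -0.24 ± 0.10 (adjusted p = 0.0455).

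Per length, Hist2h2aa2 was the highest member, at 71.7 ± 7.64 TPM with rapamycin and 56.4 ± 9.05 TPM untreated (SD, n = 3 each). It had 15.7, 13.8 and 12.7 CPM with rapamycin and 13.9, 10.1 and 13.1 CPM untreated. The groups overlapped, and the log2 fold change was 0.19 ± 0.13 (adjusted p = 0.249). After length correction it was 0.57 ± 0.13 and called higher (adjusted p = 0.000398). All of its 50-base words are in Hist2h2aa1, and the coding sequences of both have 0 differences. Hist2h2aa1 had 3.73, 5.45 and 5.55 CPM with rapamycin and 4.13, 7.15 and 5.11 CPM untreated, a log2 fold change of -0.16 ± 0.22 (adjusted p = 0.590). Within each group, the library in which Hist2h2aa2 had the most counts was that in which Hist2h2aa1 had the fewest. Their sum was 19.4, 19.2 and 18.3 CPM with rapamycin and 18.0, 17.3 and 18.2 CPM untreated, a log2 fold change of 0.09 ± 0.11 (adjusted p = 0.510).

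A further gene that the rule does not count, Gm20634, overlaps Hist2h2aa1 on the same strand and holds 89.4% of its words. It was chosen after its values were seen. It had 7.77, 9.49 and 6.14 CPM with rapamycin and 5.56, 3.73 and 3.75 CPM untreated, and its log2 fold change was 0.83 ± 0.20 (adjusted p = 4.5e-04). All rapamycin libraries were above all untreated ones. Summed with Hist2h2aa1, Hist2h2aa2 and Hist2h3c1, whose bases it also spans, it gave 27.2, 28.7 and 24.4 CPM with rapamycin and 23.6, 21.0 and 21.9 CPM untreated. That sum rose by 0.27 ± 0.10 (adjusted p = 0.0151), so the reading at this locus depended on whether the overlapping model was counted.

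Hist2h2ac, a further Hist2 H2A gene, had 2.51, 1.80 and 2.55 CPM with rapamycin and 3.21, 2.95 and 4.02 CPM untreated. Its groups did not overlap, and the log2 fold change of -0.57 ± 0.29 did not pass (adjusted p = 0.103). Hist1h2ac, at -0.10, and Hist1h2ai, at 0.05, did not pass either. In CPM the whole H2A type had 50.9, 51.4 and 49.1 with rapamycin and 50.01, 48.8 and 48.2 untreated, which overlap. In TPM, with Hist1h2ap included, it had 186, 182 and 168 with rapamycin and 138, 131 and 131 untreated, which do not overlap. Without Hist1h2ap the log2 fold change of the H2A sum was -0.11 ± 0.07 (adjusted p = 0.179). That sum had 45.3, 44.2 and 42.6 CPM with rapamycin and 47.6, 47.5 and 46.9 CPM untreated. Every rapamycin library was then below every untreated one, as in 26.8% of all genes tested.

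Of the 19 H2B genes 4 could be tested, and 0 were called by edgeR, DESeq2 or limma-voom, with 0 at an unadjusted p under 0.05. Hist2h2be had 9.94, 10.04 and 8.92 CPM with rapamycin and 10.8, 10.7 and 11.9 CPM untreated. All its words are its own, its groups did not overlap, and the log2 fold change was -0.21 ± 0.14 (adjusted p = 0.239). Hist3h2ba, which lies beside Hist3h2a, had 5.57, 4.96 and 4.29 CPM with rapamycin and 5.20, 7.13 and 4.68 CPM untreated (-0.20 ± 0.21, adjusted p = 0.463). Hist1h2bc had 3.96, 4.998 and 3.66 CPM with rapamycin and 4.49, 5.69 and 4.86 CPM untreated (-0.26 ± 0.22, adjusted p = 0.350). Both overlapped between groups.

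Of the 13 H4 genes 8 could be tested, and 0 were called by edgeR, DESeq2 or limma-voom, with 1 at an unadjusted p under 0.05, Hist1h4c. Hist1h4c had a log2 fold change of -0.77 ± 0.37 (adjusted p = 0.0865, and 0.0361 to 0.391 over its alternatives, the lowest without untreated replicate 3). Hist1h4i had 3.49, 5.41 and 3.94 CPM with rapamycin and 6.07, 4.19 and 3.97 CPM untreated (-0.16 ± 0.23, adjusted p = 0.605). The others, Hist1h4b, Hist1h4d, Hist1h4h, Hist2h4 and Hist4h4, had log2 fold changes of -0.38, -0.33, -0.16, -0.43 and 0.05. Every rapamycin library was below every untreated one in Hist1h4d and Hist2h4, as in 26.8% of all genes tested. The H4 genes encode nearly one and the same protein, and these 5 and Hist1h4c had between 0.473 and 2.84 CPM in single libraries.

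H3 was the type with the fewest counts, 4.65, 4.17 and 5.84 CPM in all with rapamycin and 6.15, 5.91 and 5.10 CPM untreated. Of the 12 genes 2 could be tested, and 0 were called by edgeR, DESeq2 or limma-voom, with 1 at an unadjusted p under 0.05. This was Hist2h3b, with 1.54, 1.01 and 0.448 CPM with rapamycin and 1.72, 1.89 and 1.82 CPM untreated. All rapamycin libraries were below all untreated ones, and the log2 fold change was -0.84 ± 0.41 (adjusted p = 0.0833, and 0.0331 to 0.413 over its alternatives, the lowest without rapamycin replicate 1). Hist2h3b shares 79.7% of its words with Hist2h3c1 and as many with Hist2h3c2, and the 3 Hist2 H3 genes together had 2.14, 2.14 and 2.25 CPM with rapamycin and 2.69, 2.39 and 2.66 CPM untreated (-0.24 ± 0.31, adjusted p = 0.540). Hist1h3a had a log2 fold change of -0.02.

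Of the 46 members below the filter, 16 had at least 10 counts over all libraries: Hist2h3c2, Hist2h2bb, Hist1h3f, Hist1h3e, Hist1h2ae, Hist1h1a, Hist1h4j, Hist1h2bg, Hist1h2ak, Hist1h2bj, Hist1h2bq, Hist1h4k, Hist1h2bh, Hist1h3i, Hist1h4a and the pseudogene Hist3h2bb-ps. The highest, Hist2h3c2, had 55.71 counts in all: 5.47, 10.05 and 15.52 with rapamycin and 11.19, 5.21 and 8.27 untreated. Hist2h2bb had 3.51, 2.65 and 4.15 counts with rapamycin and 7.06, 15.24 and 11.1 untreated, with no overlap. The pseudogene Hist1h2aj had all of its 7.91 counts in rapamycin replicate 1. Its words are 6.93% its own and it is part of the group of 12 H2A genes. A total under 10 counts was found for 30 members, the 7 at 0 included.

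Counts differed between the classes of 3′ end. Models that ran past the stem-loop held 58.1% of all member counts, models that ended at it 26.4%, those with another 3′ end 13.1%, and those that ended at the stop codon 2.16%. Per length, the median level over all members of a class was 1.69 TPM for models that ran past the stem-loop and 0.628 TPM for those that ended there. Over the tested members it was 2.95 TPM for those that ran past it and 17.3 TPM for those that ended there. The filter works on counts, so a short model needs a higher TPM to pass it. The medians of the tested members therefore do not compare the levels of the 2 classes. Hist2h2aa2, at 64.0 TPM over all 6 libraries the highest member, ended at the stem-loop. Of the tested members, 12 ran past the stem-loop: 0 were called higher and 3 lower, with a median log2 fold change of -0.30. The 8 that ended at it had 1 call higher and 0 lower, with a median of -0.09. Over all genes tested 24.1% were called higher and 23.3% lower, so the 3 of 12 called lower are near the background, and the classes were not tested against each other. After length correction the medians were -0.18 for those that ran past it and 0.30 for those that ended there. The classes differ in length, 614 to 7425 bases among tested models that ran past the stem-loop and 397 to 586 bases among those that ended there, so 3′ end and length cannot be told apart here. Summed over genes, models that ran past the stem-loop had 68.7, 70.8 and 74.1 CPM with rapamycin and 88.6, 86.9 and 83.4 CPM untreated. Within that sum, Hist1h1c averaged 24.5 CPM with rapamycin and 31.8 CPM untreated, and Hist3h2a 18.0 and 21.5 CPM. The sum without these genes was not computed. Models that ended at the stem-loop had 39.4, 36.8 and 39.1 CPM with rapamycin and 35.7, 33.9 and 32.6 CPM untreated. Of all genes tested, 26.8% had every rapamycin library below every untreated one, and 26.9% above. Without Hist1h2ap, left out after its values were seen, the other 19 models that ended at the stem-loop had 33.8, 29.6 and 32.5 CPM with rapamycin and 33.2, 32.6 and 31.3 CPM untreated, and the groups overlapped.

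**Figure D5:**
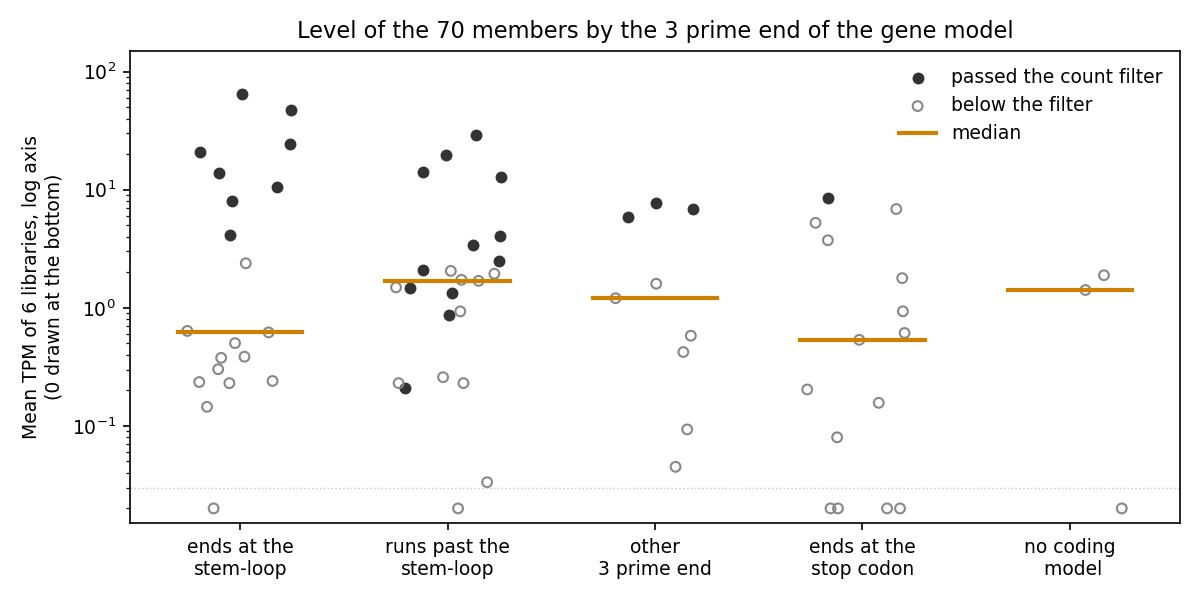
Mean TPM over 6 libraries, on a log axis, for each of the 70 members, grouped by how the gene model ends. Filled points passed the count filter, open points did not, and bars are medians over all members of a class (1.69 TPM past the stem-loop, 0.628 TPM at it).

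Shared sequence was the rule among the members rather than the exception. In 34 of 70 members less than 50% of the 50-base words were found in no other transcript, and in 9 members at least 90% were. Between 50.9% and 52.6% of member counts with rapamycin and between 48.2% and 51.1% untreated were on members whose value was not whole within 0.005, against 25.9% to 26.7% and 28.2% to 29.7% of the counts of all genes. Of the 24 tested members, 9 had whole counts in every library.

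Many replication-independent histones are made throughout the cell cycle from genes whose mRNA carries an ordinary poly(A) tail. Of 9 replication-independent histone genes tested, 2 rose and 6 fell, where 24.1% of all genes tested were called higher and 23.3% lower. Their median log2 fold change was -0.28, against -0.01 over all genes (3 higher, 4 lower and -0.02 after length correction). Of the 18 listed, 8 had no count. Together the 18 had 1332 to 1337 CPM with rapamycin and 1544 to 1586 CPM untreated. The H3.3 gene H3f3b fell to 416 ± 7.97 CPM with rapamycin, against 582 ± 16.2 CPM untreated (SD, n = 3 each; log2 fold change -0.48, adjusted p = 1.3e-25). The other H3.3 gene, H3f3a, fell by 0.21 (adjusted p = 4.6e-10), but its value turned to 0.03 after length correction (adjusted p = 0.367) and did not pass on either TPM scale (adjusted p = 0.0566 and 0.0572). The H2A.Z gene H2afz fell by 0.36 (adjusted p = 1.3e-10), and by 0.13 after length correction (adjusted p = 0.0126). Cenpa, the centromeric H3, rose to 55.2 ± 1.53 CPM with rapamycin, against 31.1 ± 2.13 CPM untreated (log2 fold change 0.83, adjusted p = 2.1e-15). The linker histone gene H1f0, typical of non-dividing cells and named after its value was seen, fell by 0.58 (adjusted p = 0.00165), as did 2 of the replication-type H1 genes.

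Of 27 tested genes for the transcription, 3′ end processing and decay of histone mRNA, 11 rose and 2 fell. Their median log2 fold change was 0.11. After length correction 5 rose and 5 fell, with a median of 0.00. Of all genes tested, 24.1% were called higher and 23.3% lower (20.2% and 18.2% after length correction). Npat, the coactivator of histone genes, had 46.4 ± 3.46 CPM with rapamycin and 34.6 ± 1.46 CPM untreated (SD, n = 3 each) and rose by 0.42 (adjusted p = 1.9e-06; 0.19 after length correction). Yy1, a transcription factor, rose by 0.25 (adjusted p = 4.3e-10), and Eri1, the exonuclease that trims the stem-loop end, by 0.33 (adjusted p = 5.4e-06), but neither passed after length correction (adjusted p = 0.544 and 0.0721). Sympk, a scaffold of the cleavage complex, rose by 0.18 (adjusted p = 4.1e-06; 0.10 after length correction), but not on either TPM scale (adjusted p = 0.532 and 0.534). Slbp, named for its role after its value was seen, had 40.1 CPM with rapamycin and 42.0 CPM untreated, a log2 fold change of -0.07 (adjusted p = 0.477).

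Among histone chaperones and import factors 8 of 25 rose and 7 fell, with a median log2 fold change of -0.02 (7 higher and 6 lower after length correction). These shares are near the 24.1% called higher and 23.3% called lower over all genes. Ubn2, a subunit of the HIRA complex that deposits H3.3, had 205 ± 0.800 CPM with rapamycin and 127 ± 1.84 CPM untreated and rose by 0.69 (adjusted p = 1.9e-25). Its paralog Ubn1 rose by 0.31 (adjusted p = 2.3e-12) and Atrx, which acts with Daxx on H3.3, by 0.33 (adjusted p = 4.2e-17). Npm3, of the nucleoplasmin family, fell by 0.59 (adjusted p = 1.6e-11). All 4 were called in the same direction after length correction, at 0.27 for Ubn2, 0.12 for Ubn1, 0.17 for Atrx and -0.31 for Npm3.

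Genes of S phase and cell division, the stage at which replication-type histones are made, were mixed: 4 of 24 tested rose and 8 fell. Among all genes tested, 24.1% were called higher and 23.3% lower. The median log2 fold change of the list was -0.13 (3 higher, 7 lower and -0.08 after length correction). Top2a, the topoisomerase of dividing cells, had 2.79 ± 1.39 CPM with rapamycin and 6.35 ± 1.12 CPM untreated (SD, n = 3 each) and fell by 1.18 (adjusted p = 6.7e-05; 0.0543 on log2 of TPM with 1 added). E2f2, a transcription factor of the cell cycle, fell by 0.57 (adjusted p = 1.7e-05). Mcm7, a subunit of the replicative helicase, rose by 0.34 (adjusted p = 3.1e-07) and Stmn1, a microtubule regulator, by 0.47 (adjusted p = 4.7e-07). The part of dividing cells in the level of any histone gene was not tested.

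All 11 T cell markers were present, as the label of the cells asks, at 4701 to 4735 CPM in sum with rapamycin and 5797 to 5832 CPM untreated. Of these, 1 rose and 9 fell, with a median log2 fold change of -0.30 (3 higher, 7 lower and -0.09 after length correction). Beside this and the lists that follow, 24.1% of all genes tested were called higher and 23.3% lower. The sums of myeloid, plasma cell, erythroid and NK cell markers did not overlap between groups, while those of B cell and platelet markers did. The 12 myeloid markers summed to 41.5 to 45.2 CPM with rapamycin and 79.5 to 83.6 CPM untreated, with 7 of 9 tested lower, and Lyz2 fell to 3.71 ± 0.217 CPM with rapamycin, against 17.1 ± 1.26 CPM untreated (SD, n = 3 each). The 8 plasma cell markers, with Ighm and Prdm1 among them, summed to 576 to 598 CPM with rapamycin and 874 to 896 CPM untreated. Of these, 5 of 7 tested were lower and 1 higher, and Tnfrsf17 was at 0. Their sum is not a measure of plasma cells alone. The 9 B cell markers summed to 569 to 597 CPM with rapamycin and 584 to 626 CPM untreated (2 lower, 1 after length correction). The 8 erythroid markers summed to 2.93 to 3.28 CPM with rapamycin and 8.09 to 11.5 CPM untreated (2 of 3 tested lower), and the 8 NK cell markers to 59.6 to 63.2 CPM with rapamycin and 64.1 to 69.1 CPM untreated (1 of 6 tested higher, 2 lower). The 6 platelet markers summed to 6.26 to 8.23 CPM with rapamycin and 4.95 to 8.14 CPM untreated (1 of 2 tested higher). The part of these cells in the fall of Hist1h1c and the H1 sum, or in the rise of Hist1h2ap, was not tested. In bulk RNA, fewer cells of a type and less RNA per cell cannot be told apart.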

How the data were processed

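Per the labels' protocols, RNAiso PLUS served for extraction and NucleoSpin RNA Clean-up XS for cleaning, and the NEBNext kit used was of the Ultra II Directional type. The submitters' processing notes name STAR, RSEM and mm10; their versions, the annotation, read length and strand setting are not given in the sources used here. The deposited tables give, per the file headers, expected counts per gene, not normalized, TPM and FPKM as the authors scaled them for length and depth (FPKM was not used), and gene length and effective length.

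GENCODE vM21 (GRCm38, which is mm10) gave symbols, models and transcript sequences and matched 55227 of 55487 gene identifiers. It also matched the length of every member with a single model. Lengths were not compared for members with several models: Hist1h2be, Hist1h2bp, Hist1h2bq, Hist1h2br and Hist2h3c1. Promoters came from RefSeq (GRCm38.p6) and were matched through Entrez identifiers for 62 members. Expected counts were rounded, filtered with filterByExpr, scaled with TMM and tested with edgeR's quasi-likelihood fit (robust, group as the only term), with Benjamini-Hochberg adjustment over 11950 genes and a threshold of 0.05. CPM refer to the TMM-scaled library size. The SE is the size of the log2 fold change over the square root of F. Sums were made before rounding. The length correction used, per library, a spline on log2 length with 5 degrees of freedom. The procedure was tested on simulated data. Members and lists were chosen with earlier results of these data known.

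Every tested member is named with its log2 fold change, the 12 highest by CPM and any called one of at least 1 (log2) with all libraries, untested ones if they had at least 10 counts, and up to 4 called genes of each other list by smallest adjusted p. Of 29 genes listed for histone mRNA processing, 27 were matched. Between libraries of 1 group the variance was 1.51 to 1.62 times counting noise. Tools were edgeR 4.0.16, DESeq2 1.42.0 and limma 3.58.1 in R 4.3.3, with figures from matplotlib 3.10.9 in Python 3.11.15. Levels of some single marker genes are not reported here.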

Additional observations from a re-analysis of the deposited data

How the results depend on the processing

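Alternatives to the fit were other composition factors (upper-quartile, RLE, none), other filters (none, at least 2 CPM in 3 libraries), other tools (limma-voom, DESeq2, and limma on TPM in log2 with 1 or 0.1 added), length correction, near-identical members summed, the replicate number as a block, and leaving out each library. Sums with neighbouring models, without Hist1h2ap and without Hist1h1c were chosen after seeing the data. The count of members called higher was 2 with no filter (Hist1h2aj added, with counts in 1 library) and 3 with length correction, and ran from 1 to 2 when a library was left out. With near-identical members summed, no single member was called higher, as Hist1h2ap was then part of a group, itself called higher. The count called lower was 1 in DESeq2 and 1 on both TPM scales, where Hist1h1c remained, and ran from 1 to 3 when a library was left out. Without untreated replicate 1 the lower ones included Hist2h2bb, otherwise below the filter. Over all genes 1158 were called lower on log2(TPM + 1) and 1144 on log2(TPM + 0.1), against 2785 in edgeR, and the share of calls that were higher was 70.1% and 70.3%, against 50.8%. With upper-quartile factors that share was 42.5%. H3f3a reversed to 0.0308 with length correction; the cause was not tested. Other single results had 35 values that lost the threshold and 6 that gained it, of 1064. The numbers of the replicates did not pair the libraries: the correlation of deviations between same-numbered libraries was -0.06, -0.03 and -0.06, and no library matched its own number best. With the replicate block 1 member was called higher and 3 lower, and the H1 sum had -0.44 (adjusted p = 1.6e-05). Depth limits what can be said of the 46 members below the filter.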
